A study of Drosophila melanogaster with 2 samples.

Results

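The 8 core genes of the Hedgehog pathway, hh, ptc, smo, ci, cos, fu, ihog and boi, were examined for binding of Oc in Drosophila melanogaster embryos. Oc (ocelliless, also named orthodenticle) is a homeodomain transcription factor of the embryonic head. Its binding had been measured by ChIP-seq, which sequences the DNA recovered with a protein by an antibody. The chromatin came from whole embryos collected at 2 to 14 hours of a transgenic strain that stably expresses Oc with GFP at its C terminus, and GFP was the target of the antibody. The series held 1 group of 2 libraries, biological replicates 2 and 3 per the labels, made from the same fly line, and both peak lists had been derived with the same control alignment. No second condition was present, so the comparisons are between genes, between summits and between the replicates. In whole embryos, binding in fewer cells and weaker binding per cell cannot be told apart. The collection window is that of the source label, since a separate age label holds a number of hours that no embryo reaches. Sonication had fragmented the chromatin, and the sex of the embryos had not been recorded.

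The genes were taken by name as the core of the pathway, 8 of 13764 protein-coding genes. No measured value entered that rule, but the genes were chosen with earlier results of these data known, so the list was not tested. A peak summit counted for a gene when one of its transcription start sites was nearer than that of any other protein-coding gene (Ensembl annotation, dm6 genome build). In the deposited set thresholded on reproducibility between replicates (irreproducible discovery rate, the IDR set) this held for 15 of 5844 summits. In the list called on both replicates together (the pooled list) it held for 54 of 30000. The lists of replicates 2 and 3 each held 30000 peaks, of which 55 and 56 were nearest to these genes. The signal is the authors' value per peak on a scale that was not stated, so peaks were ranked by it within each list, with rank 1 the highest. In the IDR set it ran from 146 to 2816 with a median of 217. The nearest start site does not show which gene a bound site acts on.

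Hedgehog (Hh) is a secreted signal that in the fly embryo is made by the posterior cells of each segment and received by neighbouring cells. Its receptor Patched holds the membrane protein Smoothened inactive until Hh binds, with Ihog and Boi as co-receptors. Active Smoothened acts through a complex of the kinesin-like protein Costa and the kinase Fused, which controls whether the zinc finger factor Cubitus interruptus (Ci) is cut to a repressor or acts as an activator. The gene ptc is itself a target of Ci.

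Of the 8 genes, 4 had at least 1 IDR summit. These were ptc with 10 summits, hh and ci with 2 each and boi with 1, while smo, cos, fu and ihog had 0. The share of 50% (95% Wilson interval 21.5 to 78.5) stands beside 21.1% of all 13764 protein-coding genes. At least 2 IDR summits were found at 3 of the 8 genes, against 8.36% of all. At least 1 pooled summit was found at 5, against 42.3%. With a looser set of the 8766 pooled peaks with the highest signal, chosen after seeing the data, fu joined the genes with a summit, and the 5 genes stood beside 26.1% of all. The genes with and without summits differed in the room around their start sites. The territory of a gene, the bases nearest to its start sites, was 28.9 kb for boi, 16.9 kb for ptc, 14.9 kb for hh and 12.1 kb for ci. It was 2644 bp for cos, 2459 bp for ihog, 2434 bp for fu and 511 bp for smo, against a median of 4333 bp over all genes. When all genes were divided into 10 classes by territory, the share with an IDR summit was 49.1% in the class of boi, 39.9% in that of ptc and hh and 31.7% in that of ci. It was 11.5% in the class of cos, 10.02% in that of fu and ihog and 6.39% in that of smo. These shares sum to 1.99 genes, beside the 4 found. Per 10 kb of territory the 8 genes held 1.85 IDR summits, and 0.782 without ptc, against 0.425 over all genes. The value over all genes includes territories of up to 1915329 bp, far longer than those of the 8, and was not adjusted for territory class.

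**Figure D1:**
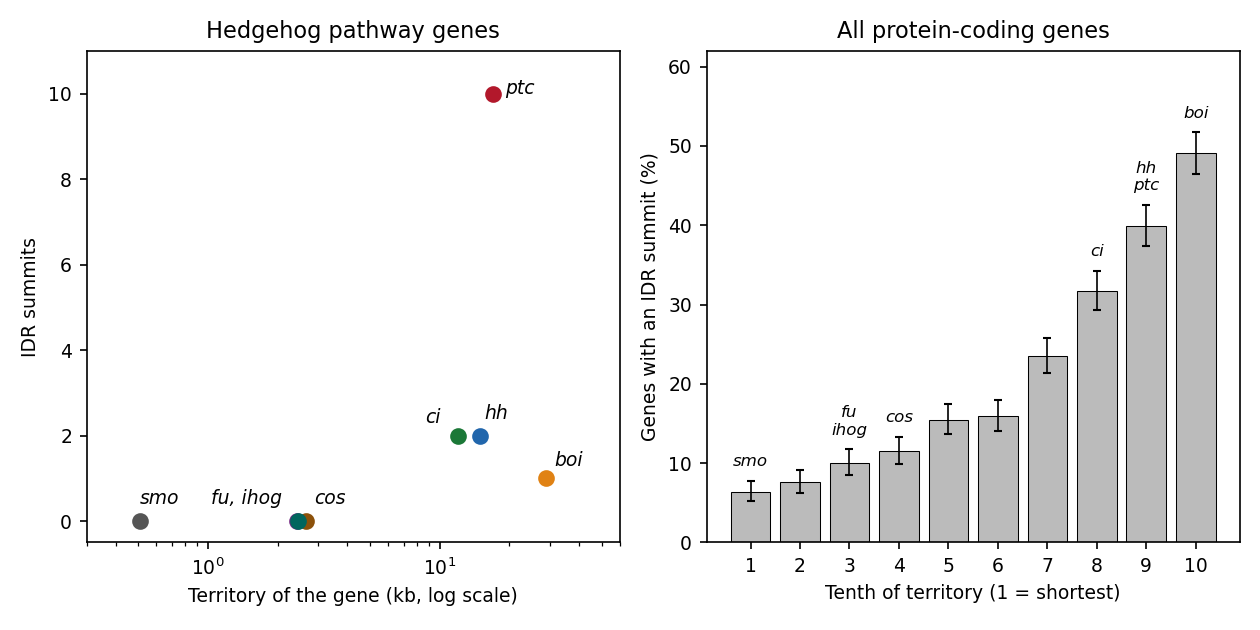
Left, IDR summits of each member (y axis) against its territory in kb (x axis, log scale). Right, the share of all protein-coding genes with an IDR summit in 10 classes of territory, with 95% Wilson intervals and the members' names above their class. The 4 genes with summits have territories of 12.1 kb or more, and ptc with 10 summits stands above the others.

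The receptor gene ptc (FBgn0003892, 2R 8649649 to 8665223, plus strand) carried most of the binding. At least 10 IDR summits were found at 38 genes (0.276% of 13764), and among the 1376 genes of its class of territory only Ids, with 12, had as many, a gene named here after its value was seen. The density of ptc was 5.91 IDR summits per 10 kb. Of the 3454 genes with a territory of at least 10000 bp only oc itself was denser, at 7.16 per 10 kb. Ids was nearly level with ptc, at 5.82 per 10 kb, so the place of ptc above Ids rests on a small difference. Whether that order holds with other rules for counting summits was not tested. The ptc summits spanned 15.7 kb, with 6 upstream of the start site and 4 in introns downstream. The 4 in introns were nearer to the start site of lncRNA:CR44281, a non-coding gene inside ptc on the other strand, so the count was 6 when start sites of all genes were used.

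The strongest ptc summit lay in intergenic sequence 5278 bp upstream of the start site (2R 8644371). Its pooled signal of 701 ranked 266, and it ranked 285 in replicate 2 (signal 362) and 199 in replicate 3 (signal 356). It stood apart from the other ptc summits in both libraries, at 2.71 times the pooled signal of the next. Its 101 bp window was also the poorest in G and C of the 15, at 26.7%.

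The next ptc summits lay in introns. The summit 5669 bp downstream (2R 8655318, pooled signal 259) ranked 2653 in replicate 2 and 1521 in replicate 3. The summit 2783 bp downstream (2R 8652432, pooled signal 235) ranked 2362 in replicate 2 and 2777 in replicate 3. Both ranked well inside the first 5844 peaks of each list. The promoter summit, 118 bp upstream of the start site (2R 8649531, pooled signal 225), ranked 3610 in replicate 2 and 2343 in replicate 3. The 3 ptc summits with a higher pooled signal were all away from the promoter.

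Upstream summits at 4378 bp and 2027 bp had pooled signals of 218 and 197. The site at 4378 bp ranked 2056 in replicate 2 and 5113 in replicate 3, and the site at 2027 bp ranked 5034 in replicate 2 and 3553 in replicate 3. Near the site at 4378 bp, replicate 3 held another, stronger summit, 4517 bp upstream, at rank 3089 (signal 103), with no match in the pooled list. The remaining 4 IDR summits of ptc, 6392 bp and 8220 bp upstream and 7465 bp and 5876 bp downstream, had pooled signals from 150 to 169. Each ranked beyond 5844 in at least 1 replicate. The summit 5876 bp downstream did so in both, ranking 9233 in replicate 2 and 6483 in replicate 3, and it lay only 207 bp from the stronger summit at 5669 bp. Below the IDR set ptc had 15 further pooled summits with signals from 35.4 to 143.

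**Figure D2:**
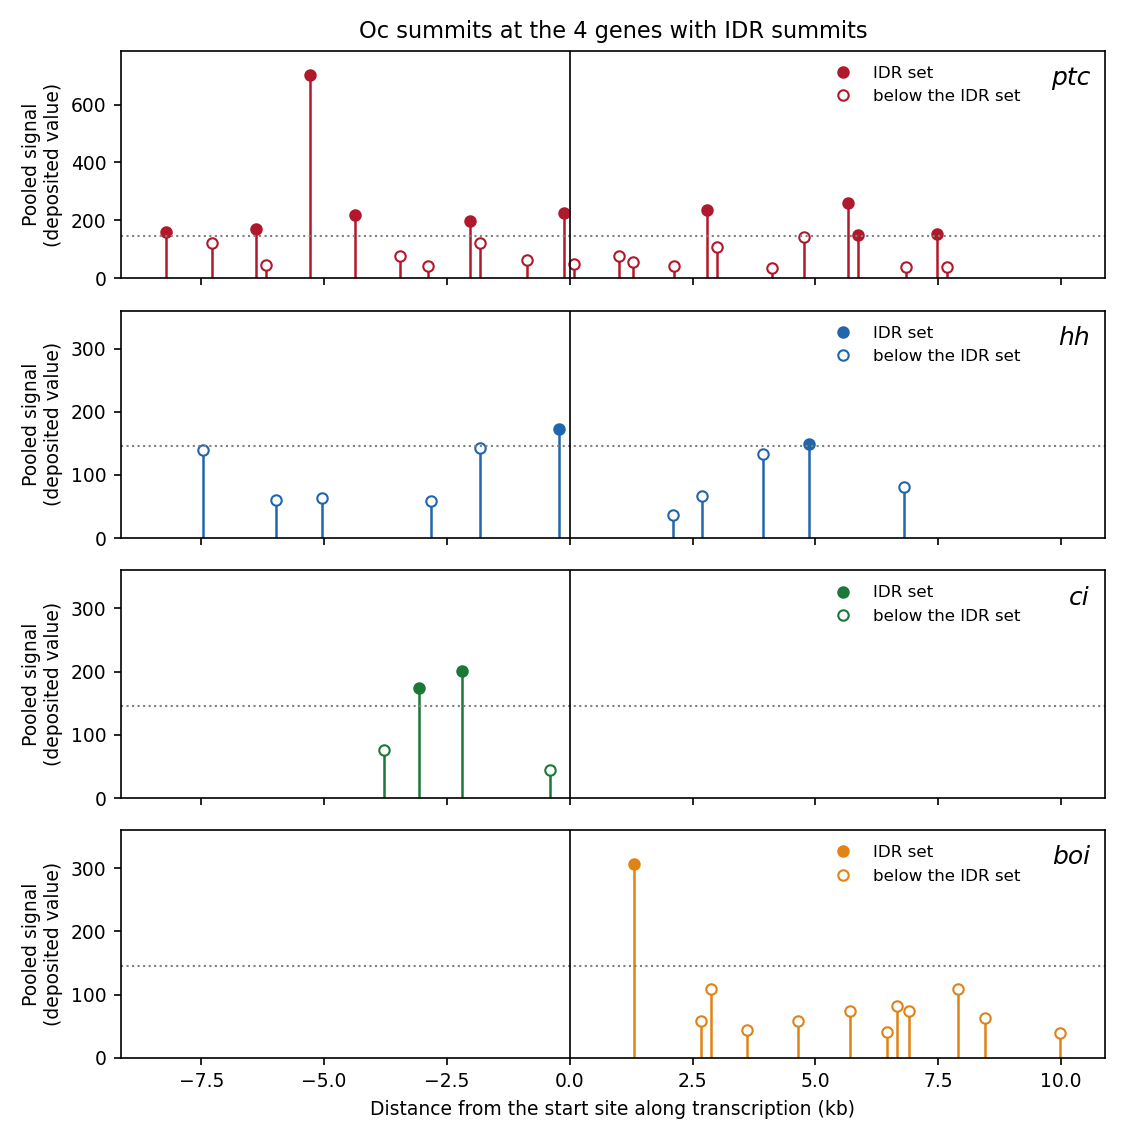
Pooled summits at ptc, hh, ci and boi by distance from the nearest start site of the gene along transcription (x axis, kb) and pooled signal (y axis, the authors' value). Filled points are in the IDR set, open points are below it, and the dotted line marks the lowest signal of the set, 146. The ptc summit at 701 is the highest, and the hh summits lie close to the line.

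The gene of the ligand, hh (FBgn0004644, 3R 23128169 to 23141906, minus strand), had summits close to the limit of the IDR set. Its promoter summit lay 210 bp upstream of the start site (3R 23142116) with a pooled signal of 172, and ranked 4415 in replicate 2 and 6149 in replicate 3. The intron summit 4863 bp downstream (3R 23137043), with a pooled signal of 149, ranked 4309 in replicate 2 and 9919 in replicate 3. Both ranked lower in replicate 3 and there lay outside the first 5844 peaks. Just below the set followed summits 1822 bp upstream, 7468 bp upstream and 3931 bp downstream, with pooled signals of 142, 140 and 134. The last hh summit inside the set ranked 5628 in the pooled list, and the first outside ranked 6090. For ptc these ranks were 5614 and 6009.

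The windows of 101 bp around the promoter summit and the intron sites of hh are shown because those in the intron hold TAATCC, the core site of Bicoid-type homeodomains such as that of Oc. They are read from RefSeq's release 6 assembly (dm6), plus strand, and capitals mark TAATCC or its reverse complement. The summit is the base in the middle.
hh promoter, chr3R:23142066-23142166: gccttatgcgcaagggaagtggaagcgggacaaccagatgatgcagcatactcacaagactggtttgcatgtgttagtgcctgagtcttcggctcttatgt
hh intron, in the IDR set, chr3R:23136993-23137093: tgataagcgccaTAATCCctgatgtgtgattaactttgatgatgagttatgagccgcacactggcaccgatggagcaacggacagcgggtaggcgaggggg
hh intron, below the IDR set, chr3R:23137925-23138025: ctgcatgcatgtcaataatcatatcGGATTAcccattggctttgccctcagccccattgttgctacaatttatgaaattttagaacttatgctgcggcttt

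The last of these windows belongs to the summit 3931 bp downstream, whose site is centred 22.5 bp from it. That summit was in both replicate lists, ranking 6672 in replicate 2 and 9252 in replicate 3. In the IDR summit the site is centred 35.5 bp from the summit. Of 7 TAATCC sites in the territory of hh, 2 lay within 50 bp of a pooled summit.

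More binding lay inside hh than the rule assigned to it. The gene body held 3 IDR summits, of which 2 were nearer to the start site of CG31457, which lies 13925 bp from that of hh. They had higher signals than the hh summits. The summit at 3R 23131101 (pooled signal 273, 10805 bp from the hh start site) ranked 1183 in replicate 2 and 4489 in replicate 3. The summit at 3R 23130472 (pooled signal 263, 11434 bp from it) ranked 3124 in replicate 2 and 1043 in replicate 3. Both lay in an intron and inside the first 5844 peaks of each replicate. The window of the summit at 3R 23130472 also holds the site, near its right edge.
hh intron, summit assigned to CG31457, chr3R:23130422-23130522: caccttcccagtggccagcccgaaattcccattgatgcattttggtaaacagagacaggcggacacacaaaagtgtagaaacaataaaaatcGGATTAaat

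The hh summits ranked differently in the replicates. Among the 5844 strongest peaks of replicate 2 hh had 4 summits, at ranks 3867, 4309, 4415 and 5621, while replicate 3 had 0, its best hh summit being the promoter at rank 6149. The share of genes with a summit among these peaks was 21.0% in replicate 2 and 21.7% in replicate 3. The strongest hh summit of replicate 2, 7476 bp upstream with a signal of 101, had its match within 100 bp in replicate 3 at rank 28296 (signal 18.8). Replicate 3 held a second summit there, 7324 bp upstream, at rank 17379 (signal 31.7).

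The effector gene ci (FBgn0004859, 4 47710 to 57041, minus strand) had 2 IDR summits upstream, 2200 bp and 3066 bp from its nearer start site. The chromosome 4 positions 59241 and 60107 lie within asRNA:CR43957, the position 59241 in an intron of that RNA and the position 60107 in an exon. The pooled signals were 202 and 175. The summit at 2200 bp ranked 2651 in replicate 2 and 5729 in replicate 3, and the summit at 3066 bp ranked 2272 in replicate 2 and 7164 in replicate 3. As at hh, both ranked lower in replicate 3.

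The strongest ci summit of each replicate list was in neither the pooled list nor the IDR set. In replicate 2 it was nearly level with the IDR summit at 3066 bp (rank 2272, signal 136). The strongest summit lay at the promoter in both lists. In replicate 2 it was 136 bp upstream of the start site at position 56331 (position 56467, rank 2270, signal 136). In replicate 3 it was 105 bp upstream of that start site (position 56436, rank 1227, signal 162). Both positions lie inside ci, between this start site and the other one at position 57041. The summits were 31 bp apart, and the q-value score of the peak was the maximum of its list, 3.78 in replicate 2 and 4.09 in replicate 3, a value that other peaks shared. The nearest pooled summit lay 982 bp away, and no pooled interval overlapped. The 5844 strongest peaks of the replicates shared 4028 summits within 100 bp, and 17 of these (0.422%) overlapped no pooled peak. The ci promoter was the only one of the 17 at the 8 genes. The counts of ci in the pooled list and the IDR set leave it out, and the cause was not tested.

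The windows of the ci summits are shown in the order of their positions on the chromosome, because the promoter window is the one that the pooled list lacks. Capitals mark TAAGCC or its reverse complement, a 6-mer close to the core site.
ci promoter, summit of replicate 2, chr4:56417-56517: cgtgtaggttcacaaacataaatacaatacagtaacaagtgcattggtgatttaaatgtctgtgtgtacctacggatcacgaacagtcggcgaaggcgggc
ci upstream, in the IDR set, chr4:59191-59291: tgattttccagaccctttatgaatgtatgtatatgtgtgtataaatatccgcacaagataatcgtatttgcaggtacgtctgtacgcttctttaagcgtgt
ci upstream, in the IDR set, chr4:60057-60157: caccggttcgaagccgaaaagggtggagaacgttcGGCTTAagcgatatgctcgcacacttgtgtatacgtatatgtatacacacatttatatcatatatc

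**Figure D3:**
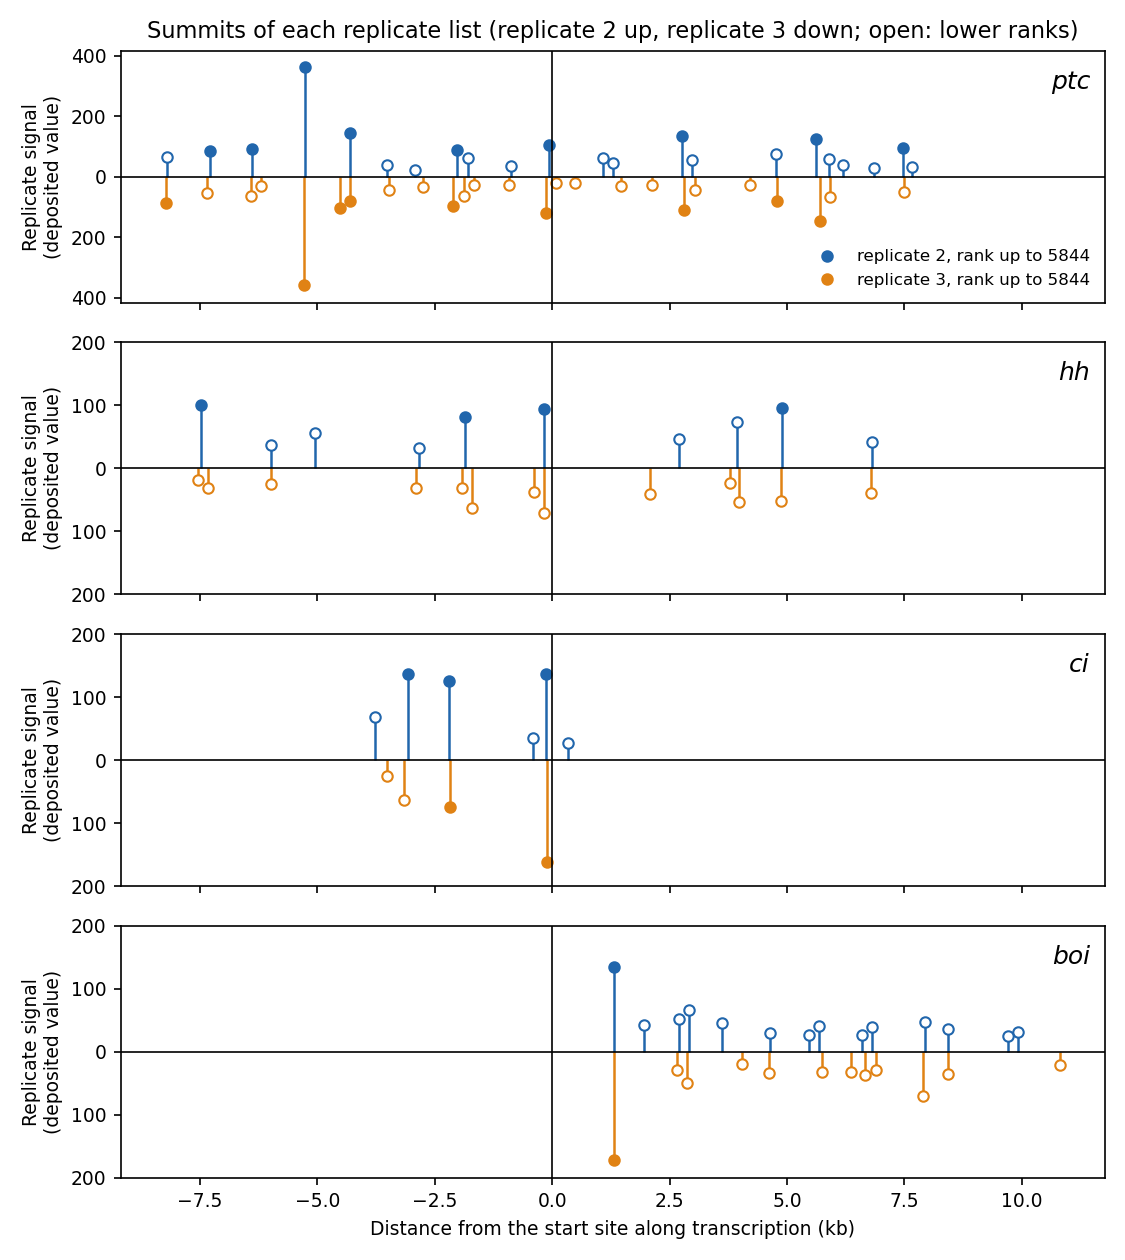
Summits of each replicate list at ptc, hh, ci and boi by distance from the nearest start site of the gene along transcription (x axis, kb) and signal in that list (y axis, the authors' value, replicate 2 above the line and replicate 3 below it). Filled points rank within 5844 in their list. At ci the promoter summit is present in both lists, with signals of 136 and 162, and at hh no summit of replicate 3 is filled.

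The co-receptor genes boi and ihog encode related membrane proteins that bind Hh, and they differed in their summits. The gene boi (FBgn0040388, X 2444167 to 2470043, minus strand) had an IDR summit in an intron 1304 bp downstream of its start site. Its pooled signal of 307 ranked 1511, and it ranked 2299 in replicate 2 and 1065 in replicate 3, with signals of 135 and 171. It was the strongest boi summit of both replicates, at 2.82 times the pooled signal of the next. The other 11 pooled summits of boi lay 2662 to 9978 bp downstream in its introns with signals from 39.5 to 109.

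At ihog (FBgn0031872, 2L 6945464 to 6948808, minus strand) the IDR set and the pooled list held 0 summits. The replicate lists held a summit at its start site, 16 bp upstream at rank 27976 in replicate 2 and 7 bp upstream at rank 8366 in replicate 3, with signals of 22.9 and 57.9. Replicate 2 held another, 183 bp downstream, at rank 13198. The site at the start was the other site at the 8 genes that both replicate lists held and no pooled peak overlapped, among 135 of 16438 shared summits of the whole lists. The nearest IDR summit of any gene lay 19512 bp from the ihog start site.

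The genes of signal transduction in the cell, smo, cos and fu, had 0 IDR summits. At smo (FBgn0003444, 2L 277582 to 282167, plus strand), which encodes the receptor-like transducer, all 4 lists held 0 summits. Start sites of CG17078 lie 370 bp and 652 bp to either side of that of smo. The nearest summit of the pooled list was 8181 bp away. At cos (FBgn0000352, 2R 7382176 to 7387115, minus strand), the gene of the Costa protein, all 4 lists again held 0 summits, and the nearest pooled summit lay 7945 bp from its start site. In the pooled list neither start site had a nearer peak, whatever gene the peak was given to.

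The kinase gene fu (FBgn0001079, X 18657755 to 18661204, plus strand) had a promoter summit below the IDR set. It lay 154 bp upstream of the start site (X 18657601) with a pooled signal of 115.3 at rank 8184. A start site of CG6659 lies 469 bp to the left of that of fu. The summit was thus between these start sites, within 500 bp of both, and nearer to that of fu. It ranked 8989 in replicate 2 and 12283 in replicate 3, so both libraries held it below the first 5844 peaks. A further pooled summit 45 bp downstream, at rank 26467, was in neither replicate list.

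All 15 IDR summits of the 8 genes had a summit within 100 bp in both replicates (Wilson interval 79.6% to 100%), against 93.6% of the IDR set. The set had been derived from these lists, so this match is partly built in. Of the 15, 13 ranked within 5844 in replicate 2 and 9 in replicate 3, while over the IDR set the shares were 84.7% in replicate 2 and 82.0% in replicate 3. In both replicates 8 of the 15 did so (Wilson interval 30.1% to 75.2%), against 68.9% of the IDR set. The 15 are not independent, since 10 are at ptc, and their median pooled signal was 197, against 217 over the IDR set. Replicate 2 gave the better rank to 8 of the 15, and to 52.1% of the IDR peaks found in both. The 4 summits of hh and ci ranked better in replicate 2, the boi summit ranked better in replicate 3, and ptc had 4 and 6.

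The rank differences were set beside those of IDR peaks of like strength. For the ci summit at 3066 bp, which differed most, the log2 ratio of rank 3 to rank 2 was 1.66, and 8.77% of the 912 IDR peaks within 500 pooled ranks differed at least as much. For the other 14 that share was 16.1% to 79.5%. Across the 15 summits the Spearman rho of the ranks was 0.393, a description over summits of 4 genes that share libraries and loci. Below the IDR set, 21 of the 39 summits (53.8%, Wilson interval 38.6 to 68.4) were in both replicates, against 45.1% of the 24156 pooled peaks there.

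**Figure D4:**
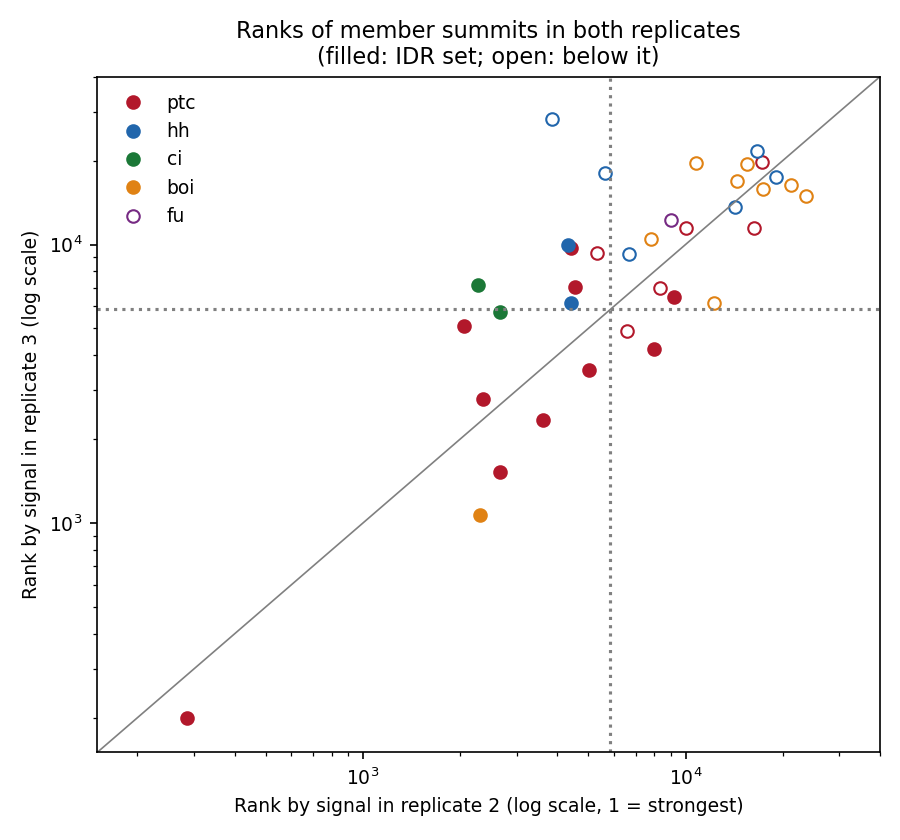
Rank by signal in replicate 2 (x axis) and in replicate 3 (y axis), both on log scales with 1 the strongest, of the member summits found in both lists. Filled points are in the IDR set and open points below it, the solid line marks equal ranks and the dotted lines mark rank 5844. The strongest ptc summit is at the lower left, and the hh and ci points of the IDR set lie above the line.

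By position, 7 of the 15 summits lay in introns (46.7% against 42.4% of the IDR set), 5 in intergenic sequence (33.3% against 20.7%), 2 at promoters, defined as within 500 bp of a start site (13.3% against 34.1%), and 1 in an exon of a non-coding RNA. The promoter summits were those of ptc and hh, 2 of the 8 genes against 12.6% of all genes, and all 5 in intergenic sequence were upstream of ptc. The GC content of the 101 bp windows had a median of 49.5%, from 26.7% to 59.4%, against a median of 40.6% over the IDR set.

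Motifs were searched on both strands in these windows and in flanks of the same width centred 500 bp to either side. Those that begin with TAAT share these letters, and TAATTA is its own reverse complement. TAATCC was in 2 of the 15 windows (13.3%, Wilson interval 3.74 to 37.9), against 8.30% of all 5844, and in 1 of 30 flanks. The 2 sites were that in the hh intron and a site at the ptc summit 7465 bp downstream, centred 5.5 bp from the summit. Neither summit ranked within 5844 in replicate 3. At gene level 2 of the 8 had an IDR summit with TAATCC, against 3.13% of all genes. That share counts genes with and without IDR summits and was not adjusted for the number of summits, of which ptc had 10. TAAGCC was in 2 windows (against 8.69% of all), the ptc summit 4378 bp upstream and the ci summit 3066 bp upstream. TAATTG, a site of other homeodomains that shares its first letters with TAATCC, was in 1 window, at ptc (against 8.32% of all), and TAATTA was in 0 (against 7.68%).

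Of the other motifs, GAGAGAG, the site of GAGA factor, was in the ptc promoter window with 3 matches, of which 2 overlap (against 2.89% of all windows). The Ci site was searched as GGTGGTC and TGGGTGG, which overlap within it. GGTGGTC was in 1 window, that of the ptc summit 2027 bp upstream (against 0.462% of all), centred 42.0 bp from the summit, and TGGGTGG was in 0 (against 0.941%). No window of the 15 thus held both overlapping ends of the Ci site. In the flanks each of these motifs was in 1 of 30. The territory of ptc held 8 matches of GGTGGTC, so 7 lay away from its pooled summits. CAGGTAG, the site of Zelda, was in 0 IDR windows (against 0.376%) and in 2 weaker boi windows. None of the 8 motifs was in 8 of the 15 windows, the strongest ptc summit and the hh promoter summit among them, against 67.2% of all IDR windows without one.

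Of 24 other genes of the pathway, 15 were bound, that is had an IDR summit, with 51 in all (62.5%, Wilson interval 42.7 to 78.8, against 21.1% of all genes). Shares of their territory classes sum to 7.85 genes. Among genes for release and spread of the ligand 4 of 8 were bound, with sotv at a signal of 279, dlp at 249 and dally at 163. The enzyme of sotv helps to build heparan sulfate chains, and dlp and dally encode glypicans, which carry such chains on the cell surface. The dlp gene had 7 summits, of which the strongest lay in an intron 8503 bp from the start site. The dally summit, 3430 bp from the start site, held TAATCC, as did 1 summit of rdx, which makes 2 of the 51, against 8.30% of all IDR windows. The gene shf, for a secreted protein that aids the spread of Hh, had 1. No IDR summit was found at disp, rasp, ttv or botv.

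Of 10 further genes of transduction 5 were bound, against 21.1% of all genes and a sum of 2.93 genes over the shares of their territory classes. The kinase gene sgg had a promoter summit with a signal of 844 that ranked 238 in replicate 2 and 114 in replicate 3. The gene nej, for the coactivator CBP, had a summit with a signal of 671 at ranks 373 and 207. The gene rdx, for an adaptor that directs Ci to degradation, had 14 summits over a territory of 60825 bp, the strongest with a signal of 415 at its promoter and ranks 842 and 868. The remaining bound genes were dco with 2 summits and CkIalpha with 1, both kinase genes. Su(fu), Pka-C1, slmb, Cul3 and Gprk2 had 0 IDR summits.

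All 6 genes of the targets and regulators were bound, with 20 summits, against 21.1% of all genes. These genes have long territories, and the shares of their territory classes sum to 2.85 of the 6. The strongest were at inv (signal 500), dpp (374) and en (354), ahead of kn, wg and rho. The homeodomain gene en and its neighbour inv regulate hh, while wg and dpp encode secreted signals. The strongest summit of each of the 6 genes was in both replicates. The strongest ptc summit, at 701, was higher than those of all 6.

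**Figure D5:**
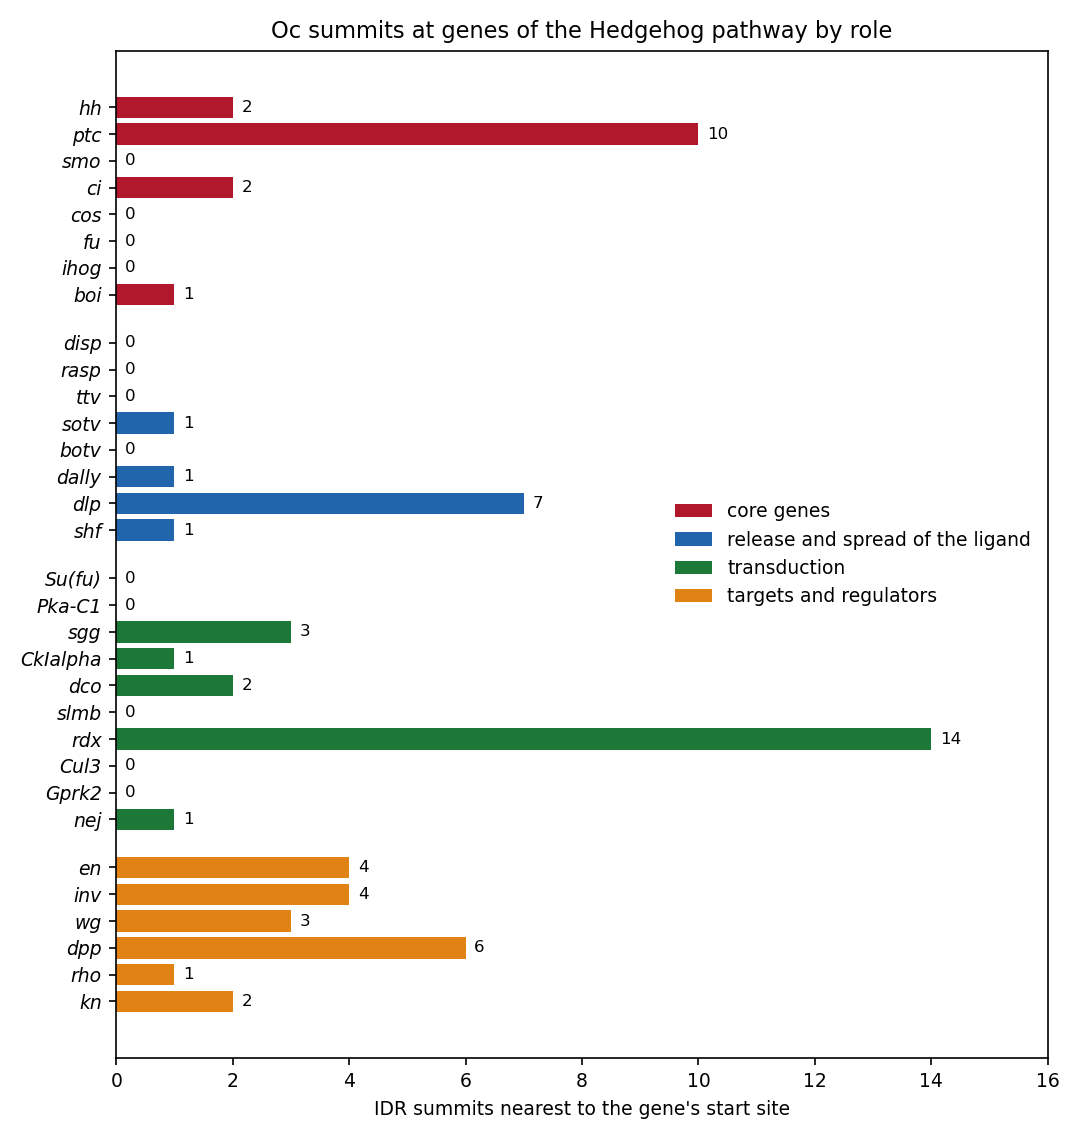
Number of IDR summits (x axis) nearest to the start site of each gene (y axis), grouped by role in the pathway, with the 8 core genes at the top. The highest counts are 14 at rdx, 10 at ptc and 7 at dlp, and 9 of the 24 other genes have 0.

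Genes with the same number of IDR summits were compared with each member by their highest signal in the pooled list. Of 10 other genes with 10 summits, ems (711), hng3 (545) and Antp (932) were closest to ptc (701), and each had a longer territory, from 34272 to 127199 bp. For ci the closest of 528 genes with 2 summits were Fas2, Obp51a and Pos. For hh they were Obp56h, AdamTS-A and CG5326, and for boi the closest of 1753 genes with 1 summit were CG12507, KP78b and anox.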

How the data were processed

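ChIP-seq peak lists of 2 libraries of 1 group were used. Per the README text deposited with the samples, the replicate lists were derived from 1 alignment each, the pooled list from both, and the IDR set from these 3 lists, all on dm6. The sources used here do not give the aligner, peak caller, filters, IDR threshold or read depth. The deposited columns used were the signal value, the q-value score (-log10 as deposited by the authors) and the summit offset, another deposited position in bases counted from 0. Ranked by signal, the first 5844 pooled peaks were the IDR set.

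Summits were assigned in Python 3.11.15 (numpy 2.4.6, pandas 2.3.3, scipy 1.17.1, matplotlib 3.10.9) with Ensembl 115 (BDGP 6.54). Sequence came from RefSeq release 6, the same build. The sequence at the boi summit is not reported here. Of 13968 protein-coding genes, 204 had no territory of their own under the rule and were left out. Summits within 100 bp were matched. Motif windows reached 50 bp to each side. Assignment, matching and motif search were tested on simulated summits. No test was run: peaks and genes are not replicates. The 95% Wilson intervals reflect counting error and nothing else. Alternatives changed the peak set, the replicate, the start sites, the matching, the promoter and the window.

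The genes, lists and tests were chosen with earlier results of these data known. Named were the 8 genes, 24 other pathway genes by role, up to 3 per role with values by highest signal, and the 3 genes most like each bound member. Other pathway genes with values, Ids, oc and CG31457 were named after their values were seen.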

Additional observations from a re-analysis of the deposited data

How the results depend on the processing

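With the 2922 peaks of the IDR set with the highest signal, the 15 summits became 6, at ptc and boi, so bound genes numbered 2 against 13.6% of all genes, summits in both replicates 6, promoter summits 1 and summits with TAATCC 0. Taking the 5844 strongest peaks of 1 replicate at a time gave 12 to 17 summits, 3 to 4 bound genes, 2 to 3 promoter summits and 0 to 3 summits with TAATCC. The matches of the 15 summits numbered 15 with either replicate left out, a result fixed in advance because all 15 matched in both. Without replicate 2, hh and TAATCC were both at 0. Summits with TAATCC numbered 1 with sites within 25 bp, and 1 when start sites of all genes were used, where lncRNA:CR44281 took 4 of the 10 ptc summits. Of the 15, 8 were among the 5844 strongest peaks of both replicates, against 68.9% of the IDR set. Every other alternative run stayed within 1.5 times the count reported. Among alternatives added after seeing the data, leaving out summits under 400 bp from a stronger one gave 14 summits. Taking 8766 pooled peaks gave 22 summits and 5 bound genes, with fu added, against 26.1% of all genes. No paired analysis was possible because the series holds 1 group. Depth is unknown, so a gene with 0 summits has no peak in these lists and is not shown to be unbound.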

Other observations

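Binding within the gene bodies reached beyond the nearest start site at ptc and boi as well. An intron of ptc held an IDR summit at 2R 8659759 (signal 188), 10110 bp from the ptc start site and nearer to that of Acsl, which ranked 2724 in replicate 2 and 4836 in replicate 3. At boi, 4 weaker pooled summits in its introns, with signals from 51.7 to 67.7, were nearest to a start site of z, a gene inside boi.

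Several member summits came in close pairs. Of 49 gaps between neighbouring pooled summits of the same member 11 (22.4%) were under 400 bp, from 199 to 283 bp, against 15.8% of all gaps in the pooled list. The gaps of the whole list include those between summits of different genes, so the shares are not like for like. The smallest gap in the whole list was also 199 bp. The ptc summits 5669 and 5876 bp downstream were such a pair.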
